A study of Mus musculus with 16 samples.

Results

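The 9 genes of mouse chromosome 19 described here were read across the Ch25h and tau genotypes of 16 brain RNA libraries. Of the 9 genes, 8 (Stambpl1, Acta2, Fas, Slc16a12, Pank1, Htr7, Rpp30 and Pcgf5) lie within 1.87 Mb of Ch25h and were taken as genes near it. Position alone does not give these 8, since 15 other tested genes lie as close by gene midpoint, and why they were left out is not stated. The other gene, Pyroxd2, lies 8.25 Mb from Ch25h and was selected on its measured values, the fall of its counts in the Ch25h-/- libraries. All 9 were found by symbol among the 54532 entries of the table, and all 9 passed the filter on low counts that left 17736 genes, of which 544 lie on chromosome 19.

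The mice were female and 9 months of age in every group. Mice with intact Ch25h (Ch25h+/+) and mice without it (Ch25h-/-) were each sampled without tau (Tau-) and with tau (Tau+), with 4 libraries in each of the 4 groups. Ch25h encodes the enzyme that converts cholesterol to 25-hydroxycholesterol, -/- is read as the homozygous loss of that gene, and Tau+ is read as carrying a tau transgene whose promoter the labels do not name. The sample labels give frontal cortex as the tissue, while the series text gives hippocampus. Nothing in the labels says how the Ch25h allele was made, on which strain it is carried, or whether the 4 libraries of a group came from separate mice, so p-values measure the spread between these libraries, which may be technical.

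A targeted allele is inherited together with the DNA that surrounds it. When an allele made in cells of one mouse strain is bred onto another, a stretch of the first strain's chromosome on both sides stays linked to it, and genes in that stretch can differ in sequence and in expression from those of the control mice. Recombination shortens this stretch over generations of breeding, so genes close to the allele stay linked to it longer than distant ones. Flanking genes are often read as a check in knockout studies for this reason. The table holds counts per gene and no sequence variants, so in these samples the loss of Ch25h and the origin of the DNA around it cannot be told apart.

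Shown here are a pair of promoters, that of Pyroxd2, the gene with the largest difference, and that of Ch25h, the targeted gene. Both run from 250 bases before to 50 bases after the RefSeq start on GRCm38.p6, minus strand, written 5′ to 3′. The capitals mark the reverse complement of GGGCGG in Pyroxd2 and TATAAA in Ch25h, and the first lies at chr19:42752726-42753025 and the second at chr19:34475099-34475398.
Pyroxd2: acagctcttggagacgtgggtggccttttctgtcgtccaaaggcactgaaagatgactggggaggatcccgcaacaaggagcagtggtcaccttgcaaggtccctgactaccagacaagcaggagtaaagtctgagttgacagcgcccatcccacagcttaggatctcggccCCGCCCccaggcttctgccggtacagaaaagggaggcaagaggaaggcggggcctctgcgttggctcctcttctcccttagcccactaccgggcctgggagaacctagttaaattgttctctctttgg
Ch25h: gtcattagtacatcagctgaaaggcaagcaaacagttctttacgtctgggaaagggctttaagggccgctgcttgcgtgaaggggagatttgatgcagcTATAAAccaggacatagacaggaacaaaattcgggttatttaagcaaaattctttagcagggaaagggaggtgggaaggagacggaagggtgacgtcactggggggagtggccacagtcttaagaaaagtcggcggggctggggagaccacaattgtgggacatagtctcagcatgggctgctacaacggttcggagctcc
The letters GGGCGG, searched on both strands, are in the promoters of 4 of the 9 genes (Pyroxd2, Stambpl1, Fas and Pcgf5) and in 35.7% of 32851 RefSeq mouse promoters of this length. TATAAA is in 1 of the 9 (Pank1), in Ch25h, and in 13.6% of all promoters. GAAA, any 2 bases and GAAA again, the core of the interferon-stimulated response element, is in none of the 9 and not in the Ch25h window, against 3.44% of all promoters. These letter matches are a description, and they do not separate Pyroxd2 from the other 8 genes.

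Totals were 15530352 to 25602500 counts per library, and levels are given in CPM, counts scaled to a common library size, with TMM factors. Cortex markers summed to 629 to 851 CPM and hippocampus markers to 179 to 353 CPM over the 16 libraries. Libraries also differed in ribosomal RNA: the transcript CT010467.1 took 2289 to 5684 CPM on total counts in 7 libraries, all Ch25h-/-, and 111 to 475 CPM in the other 9, among which a single one, Ch25h-/- Tau+ replicate 1, lacked Ch25h. These are called rRNA-rich and rRNA-poor libraries here. Class and Ch25h genotype can hardly be told apart here, since with class as a covariate the mean Ch25h difference rests largely on that single library. Such a fit left 0% of the genes outside 10 Mb of Ch25h past the threshold for mean Ch25h loss, where the fit without it had 20.3%. Every call for mean Ch25h loss given here for a gene other than Ch25h and Pyroxd2 was lost in it, and such a loss says little. Of the 22 called genes that share a pathway or family with the 9 genes or lie beside Pyroxd2 or Ch25h, 19 came closer to 0 with the covariate, Pop7 and Bmi1 among them with a change of sign. With offsets corrected for GC content 4 of the 22 kept the call (Slc16a1, Cbx8, Hps1 and Ifit3b).

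Ch25h itself had 5 to 10 counts in the Ch25h+/+ Tau- libraries, 11 to 30 in Ch25h+/+ Tau+ and 0 in all 8 Ch25h-/- libraries. Against a floor of 3 counts per library this was at least 2.10-fold lower without tau. With tau it was at least 5.75-fold lower. The noncoding gene Gm26902 starts inside Ch25h on the other strand and shares 357 bases with it. It had 1.08 ± 0.201 CPM (SD, n = 4) in Ch25h+/+ Tau-, 1.14 ± 0.560 in Ch25h+/+ Tau+, 0.445 ± 0.239 in Ch25h-/- Tau- and 0.567 ± 0.197 in Ch25h-/- Tau+. Without knowledge of strand use in the counting, reads of the pair cannot be separated, and the Gm26902 values are uncertain.

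Pyroxd2 was low in every Ch25h-/- library. The gene (ENSMUSG00000060224.4, chromosome 19, 42725858 to 42752775, minus strand, GRCm38) encodes a protein named for its pyridine nucleotide-disulphide oxidoreductase domain, a flavin-binding fold. In Ch25h+/+ Tau- the 4 libraries had 4.92, 6.60, 9.06 and 10.7 CPM, from 90 to 249 counts. The Ch25h+/+ Tau+ libraries had 8.12, 9.48, 10.6 and 10.6 CPM. In Ch25h-/- Tau- the values were 1.27, 1.34, 1.59 and 1.87 CPM, from 21 to 31 counts. The Ch25h-/- Tau+ libraries had 1.43, 2.31, 2.39 and 2.43 CPM, from 22 to 62 counts. The highest Ch25h-/- library therefore lay below the lowest Ch25h+/+ library, and the 2 genotypes did not overlap in either tau status.

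The mean level of Pyroxd2 was 7.83 ± 2.58 CPM (SD, n = 4) in Ch25h+/+ Tau- against 1.51 ± 0.273 in Ch25h-/- Tau-, and 9.69 ± 1.16 in Ch25h+/+ Tau+ against 2.14 ± 0.475 in Ch25h-/- Tau+. The fitted log2 fold change of Ch25h loss was -2.37 (standard error 0.24) in Tau- and -2.16 (0.23) in Tau+, which is 5.17-fold and 4.48-fold lower. Averaged over both tau states it was -2.27 (0.16), or 4.81-fold lower. By the size of this mean log2 fold change Pyroxd2 ranked 8 among the 13960 genes with a mean of at least 2 CPM. Pyroxd2 was chosen for this difference, so it is a description with no p. Every Ch25h-/- library still had 21 or more counts of Pyroxd2.

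**Figure D1:**
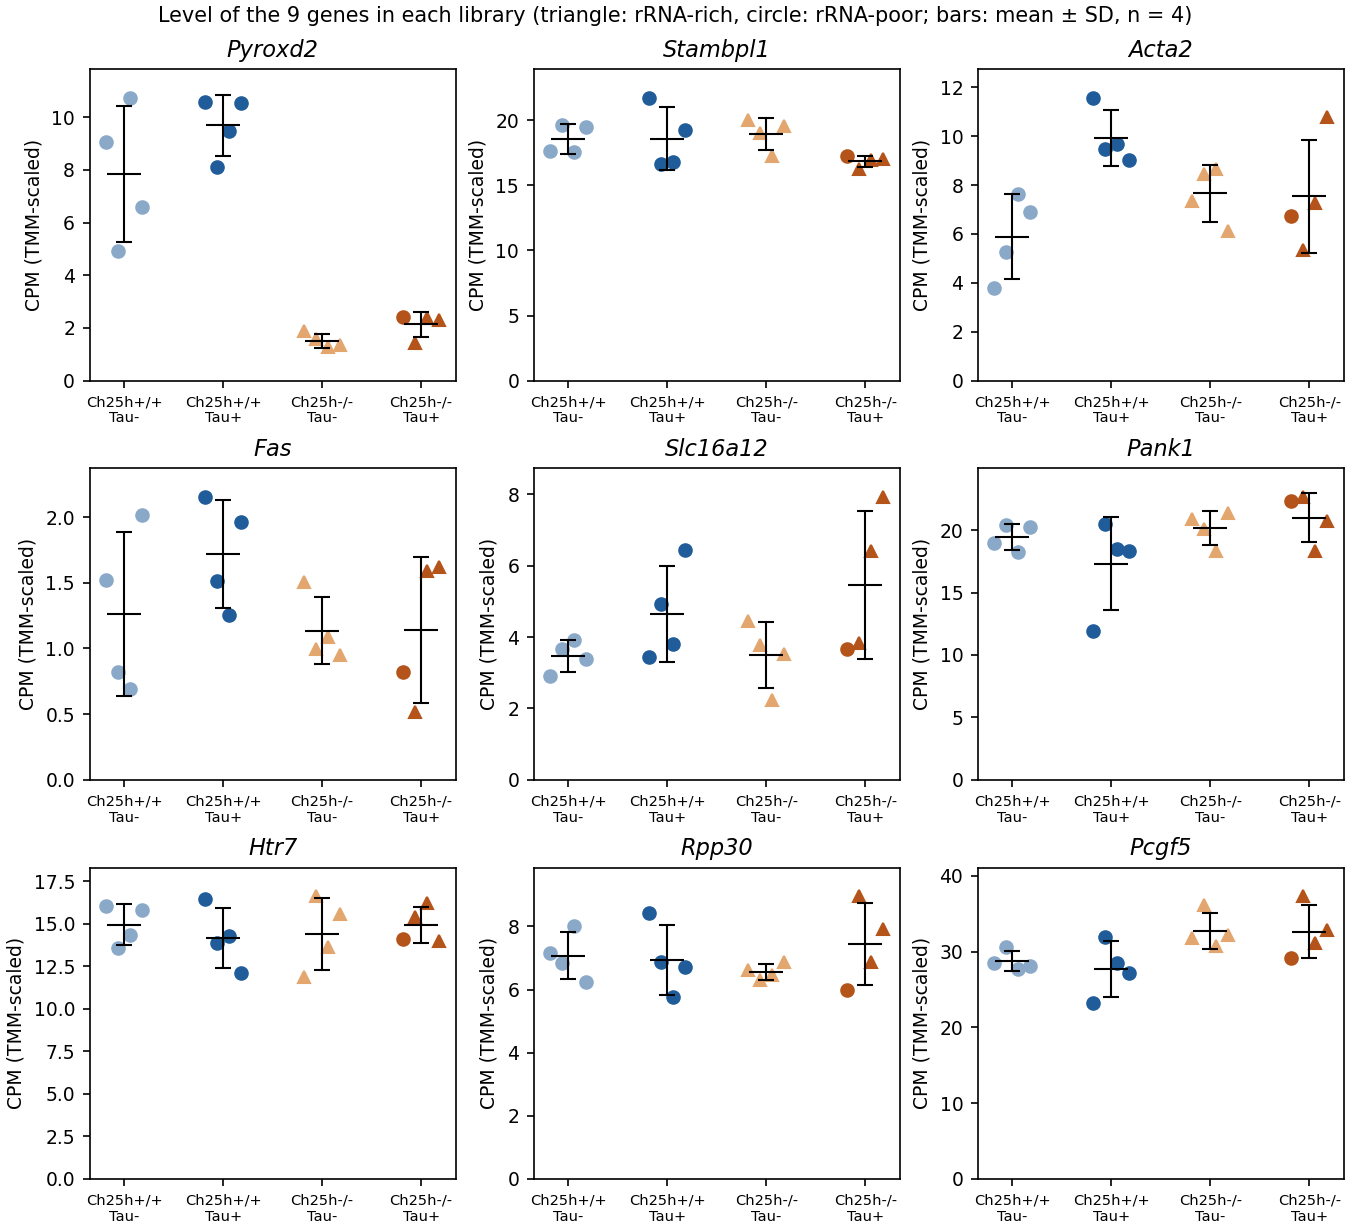
Level of the 9 genes in CPM (linear axis from 0) in the 16 libraries by group, with the mean and SD of 4 libraries in black; triangles are rRNA-rich and circles rRNA-poor libraries. Pyroxd2 is the only panel in which all 8 Ch25h-/- libraries (1.27 to 2.43 CPM) lie below all 8 Ch25h+/+ libraries (4.92 to 10.7 CPM).

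Pyroxd2 was chosen on these libraries, so its level by class is a description and no further support. Across the 16 libraries its level ran against log2 ribosomal RNA (Pearson r -0.835), a measure that differs between the genotypes. Ch25h-/- Tau+ replicate 1, which is rRNA-poor, had 2.43 CPM of Pyroxd2 from 62 counts. The 8 rRNA-poor Ch25h+/+ libraries had 4.92 to 10.7 CPM, and the 7 rRNA-rich Ch25h-/- libraries had 1.27 to 2.39 CPM. In a fit of only the 9 rRNA-poor libraries, an alternative chosen after seeing the data, the log2 fold change of Ch25h loss in Tau+ was -1.99 (standard error 0.40), from 1 Ch25h-/- library against 4. With class as a covariate in all 16 libraries the mean log2 fold change was -2.06, and with offsets corrected for the GC content of genes in each library it was -2.17. The comparison within the rRNA-poor class rests on that single library.

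**Figure D2:**
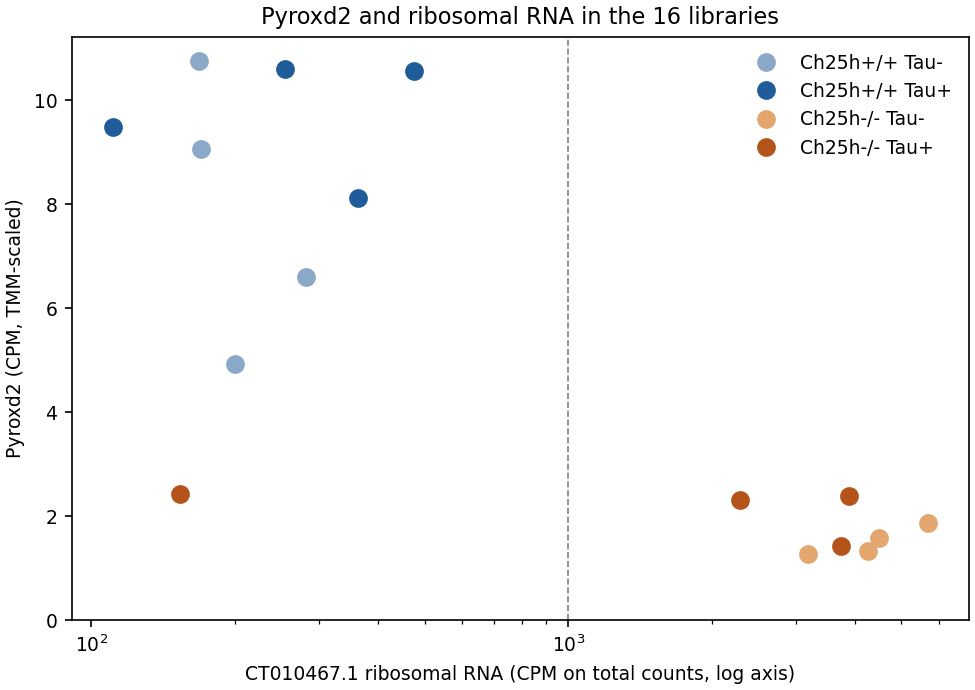
Pyroxd2 level (CPM, linear axis) against the ribosomal RNA transcript CT010467.1 (CPM on total counts, log axis) in the 16 libraries, coloured by group, with the class boundary of 1000 CPM as a dashed line. The single Ch25h-/- library left of the line has 2.43 CPM of Pyroxd2, beside 8 Ch25h+/+ libraries at 4.92 to 10.7 CPM.

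Tau status was not used to choose Pyroxd2, so its tau effect can be tested. The log2 fold change of Tau+ against Tau- was 0.30 (standard error 0.21) in Ch25h+/+ and 0.51 (0.25) in Ch25h-/-, and neither passed (edgeR quasi-likelihood test, Benjamini-Hochberg adjusted p 0.777 and 0.99998). The mean of both was 0.40 (0.16), with an unadjusted p of 0.0234 and an adjusted p of 0.383 in the same test. The interaction, the tau effect in Ch25h-/- minus that in Ch25h+/+, was 0.21 (0.33; edgeR adjusted p 0.99996). None of these passed the threshold of 0.05.

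The genes beside Pyroxd2 on the chromosome had differences in both directions. Pyroxd2 was picked on this contrast, so its size beside theirs is a description. The 5 tested genes on each side were read, from Zfyve27 to Slc25a28. The nearest, Hps1, encodes a subunit of a complex that builds lysosome-related organelles. It lies on the same strand, and its 3′ end is 2.33 kb before the start of Pyroxd2. Hps1 rose with mean Ch25h loss from 19.1 ± 2.704 CPM (SD, n = 8) to 27.1 ± 6.83 (log2 fold change 0.51, standard error 0.14; edgeR quasi-likelihood test, Benjamini-Hochberg adjusted p 0.0166). Its libraries overlapped, with 14.5 to 22.7 CPM in Ch25h+/+ and 19.6 to 37.7 in Ch25h-/-. The Ch25h-/- values were 19.6, 20.9, 22.0 and 22.4 CPM, within the Ch25h+/+ range, and 29.3, 30.8, 34.4 and 37.7 CPM, above it. With library class as a covariate the Hps1 difference was 0.90 and its adjusted p 0.9995, so the call was lost.

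On the other side, R3hcc1l differed by 0.17 (standard error 0.092; edgeR adjusted p 0.193), and Crtac1 and Golga7b fell by 0.22 and 0.27 on the log2 scale (adjusted p 0.0276 and 0.00754, edgeR quasi-likelihood test). Beyond Hps1, Slc25a28, a mitochondrial iron transporter, fell by 0.24 (adjusted p 0.0205). On the side of R3hcc1l, Sfrp5, a secreted Wnt inhibitor read at 1.52 CPM on average, had a log2 fold change of -0.95 (0.47) and an adjusted p of 0.155. Zfyve27, Gm47936, Cnnm1 and Got1 did not pass either, with log2 fold changes of -0.12 to 0.079. Of the 10 neighbours 4 were called (Hps1, Crtac1, Golga7b and Slc25a28), beside 20.3% of all genes. With library class as a covariate Crtac1 was -0.067, Golga7b -0.12 and Slc25a28 -0.092, and with GC-corrected offsets these 3 did not pass either (-0.088, -0.13 and -0.16), while Hps1 did (0.66, edgeR adjusted p 0.0131).

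**Figure D3:**
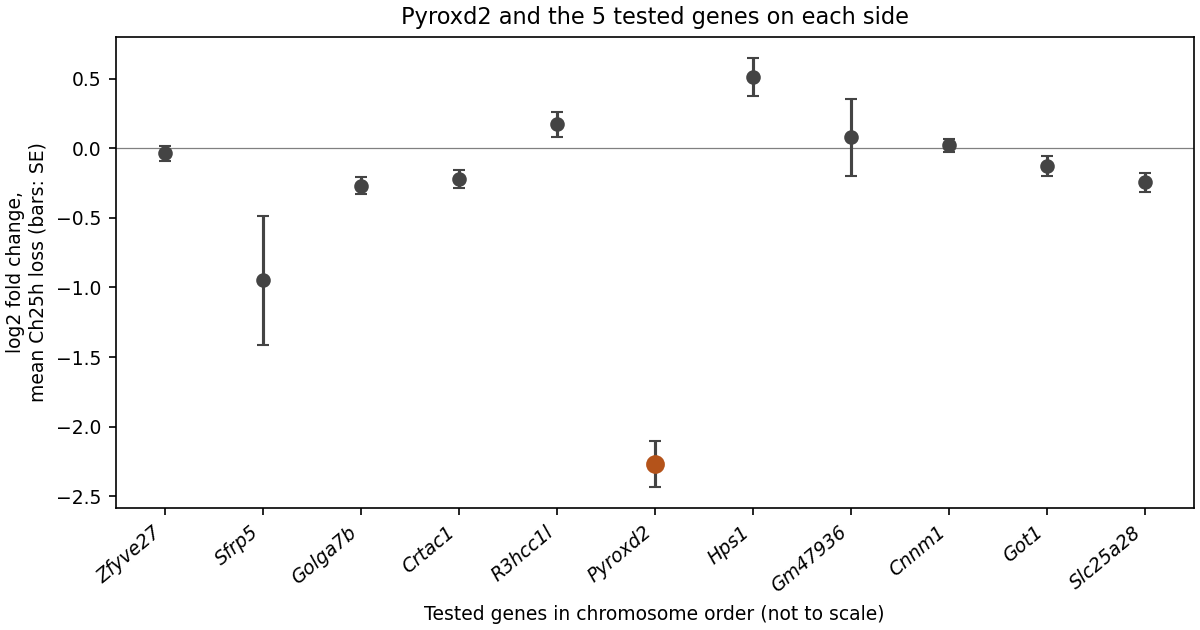
Log2 fold change of mean Ch25h loss (points, bars are standard errors) for Pyroxd2 and the 5 tested genes on each side in chromosome order, spaced evenly. Pyroxd2 lies at -2.27, its neighbour Hps1 at 0.51, and the remaining 9 genes between -0.95 and 0.17.

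The 8 members close to Ch25h had a median absolute log2 fold change of 0.084 for mean Ch25h loss, beside 0.16 over all 17736 genes. With library class as a covariate the median of the 8 was 0.23, and no median over all genes was taken from that fit to set beside it. The 15 other tested genes as close had a median of 0.36 without the covariate, so the 8 alone do not describe that stretch, though the difference was not tested. The 15 include genes read below 1 CPM, such as Gm26902 at 0.808 CPM on average. The 142 tested genes within 10 Mb, which include both sets, had a median of 0.16. The largest of the 15 were Gm26902 (-1.11), Ifit3b (-0.66), Ifit3 (-0.56) and Kif20b (0.54, at 0.637 CPM on average). For the 8 members the median was 0.081 in Tau- and 0.23 in Tau+, beside 0.17 and 0.18 over all genes. The rule that set these genes together with Pyroxd2 used Ch25h genotype, so their Ch25h differences are given with no p. The choice of Pyroxd2 fixed its own calls, so nothing is read from them. Of the 8 others 1 (Pcgf5) was past the threshold for mean Ch25h loss, where 20.3% of all genes tested were. None of the 8 was past it in Tau- (1.03% of all genes) or in Tau+ (3.55% of all genes). The libraries of the genotypes overlapped for each of the 8 over both tau states (1.66% of all genes had no overlap) and in Tau+ (10.2%), and in Tau- for all but Pcgf5 (16.2%).

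Levels of different genes were compared per kilobase of exon, over all 16 libraries. Htr7 was highest at 4.30 ± 0.432 CPM per kb (SD, n = 16), followed by Acta2 at 3.53 ± 0.956, Stambpl1 at 3.28 ± 0.283, Pcgf5 at 2.41 ± 0.274, Pank1 at 2.36 ± 0.300 and Rpp30 at 1.68 ± 0.215. Slc16a12 at 1.02 ± 0.354 and Fas at 0.637 ± 0.241 were lowest of the 8. Htr7 and Acta2, Acta2 and Stambpl1, and Pcgf5 and Pank1 differed by less than the larger SD of the pair. Pyroxd2 had 1.82 ± 0.437 CPM per kb (SD, n = 8) in Ch25h+/+, between Pank1 and Rpp30, and 0.379 ± 0.102 (SD, n = 8) in Ch25h-/-, below the mean of Fas.

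Pcgf5, a RING-finger subunit of a variant Polycomb repressive complex that marks histone H2A, lies 1.87 Mb from Ch25h. Its 4 libraries had 27.7, 28.1, 28.6 and 30.6 CPM in Ch25h+/+ Tau-, and 30.8, 31.8, 32.2 and 36.1 in Ch25h-/- Tau-, so all of the second group lay above the first by a narrow gap. In Ch25h+/+ Tau+ they had 23.2, 27.2, 28.5 and 32.0 CPM and in Ch25h-/- Tau+ 29.2, 31.1, 32.9 and 37.4, which overlap. The mean log2 fold change of Ch25h loss was 0.21 (standard error 0.070). It was 0.025 with library class as a covariate and 0.041 with the GC-corrected offsets, and the lowest Ch25h-/- library, at 29.2 CPM, was the rRNA-poor one. Among 18 other genes of Polycomb repressive complex 1, Bmi1 (0.26) and Phc3 (0.42) rose and Cbx8 (-0.46), Cbx6 (-0.21) and Phc2 (-0.24) fell for mean Ch25h loss, with log2 fold changes in brackets; by the edgeR test their adjusted p lay between 0.00649 and 0.0127. These 5 of 18 stand beside 20.3% of all genes called, and the median of the 18 was -0.066, beside 0.0044 over all genes.

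Fas, a death receptor of the tumour necrosis factor receptor family that recruits caspases, lies 146 kb from Ch25h and was read thinly. Its libraries had 0.690, 0.820, 1.52 and 2.02 CPM in Ch25h+/+ Tau-, from 15 to 40 counts, and 1.26, 1.51, 1.961 and 2.16 in Ch25h+/+ Tau+. In Ch25h-/- Tau- they had 0.948, 1.0, 1.08 and 1.51 CPM, and in Ch25h-/- Tau+ 0.520, 0.822, 1.59 and 1.62, from 8 to 28 counts. All 4 groups overlapped. The log2 fold change of Ch25h loss was -0.15 (standard error 0.38) in Tau- and -0.59 (0.37) in Tau+, with a mean of -0.37 (0.26). With library class as a covariate the mean difference was -0.91, which is over 1.5 times as large, and without Ch25h+/+ Tau- replicate 4 it was -0.22.

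The tau effect on Fas was 0.44 (0.36) in Ch25h+/+ and -0.0010 (0.37) in Ch25h-/- (edgeR adjusted p 0.847 and 0.99998). Its intervals of 95% ran from -0.26 to 1.14 and from -0.73 to 0.73, which at this depth leaves changes of either sign within the interval. Of 11 tested genes of Fas signalling, 1 rose with tau in Ch25h+/+, where 1.56% of all genes passed: Tnfrsf1a, the main tumour necrosis factor receptor (0.74, standard error 0.16; edgeR adjusted p 0.0167). Tnfrsf1a also fell with Ch25h loss in Tau+ by 0.76 on the log2 scale (edgeR adjusted p 0.0162; 3.55% of all genes passed), a comparison that shares the Ch25h+/+ Tau+ libraries with the tau effect. Microglia markers summed to 334 to 352 CPM without tau and 517 to 646 CPM with it in Ch25h+/+, and to 322 to 404 CPM in Ch25h-/- Tau+, and their part in the Tnfrsf1a values was not tested. The median of the 11 was 0.13 for tau in Ch25h+/+ and -0.084 for mean Ch25h loss, beside -0.0080 and 0.0044 over all genes.

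Acta2, the smooth muscle actin of arteriole walls, lies 218 kb from Ch25h and separated by tau in Ch25h+/+. In Ch25h+/+ Tau- its libraries had 3.79, 5.25, 6.90 and 7.64 CPM, and in Ch25h+/+ Tau+ 9.01, 9.47, 9.67 and 11.6, with no overlap. In Ch25h-/- Tau- they had 6.14, 7.35, 8.47 and 8.68 CPM, and in Ch25h-/- Tau+ 5.33, 6.73, 7.27 and 10.8, which overlap throughout. The tau log2 fold change was 0.75 (standard error 0.21) in Ch25h+/+, with an unadjusted p of 0.00249 and an adjusted p of 0.110 in the edgeR quasi-likelihood test, which misses the threshold. DESeq2, limma-voom, no filter on low counts and a choroid plexus covariate each put it past the threshold, with adjusted p of 0.0255, 0.0412, 0.0289 and 0.0414. It stayed above the threshold in the other 4 of 8 such alternatives and in all 16 fits that each left out 1 library.

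In Ch25h-/- the Acta2 tau effect was -0.025 (0.22; edgeR adjusted p 0.99998). The interaction was -0.77 (0.30), with an unadjusted p of 0.0198 and an adjusted p of 0.950 in the edgeR test, so a difference between the genotypes was not shown. Ch25h loss gave 0.37 (0.22) in Tau- and -0.40 (0.21) in Tau+, of opposite sign, and a mean of -0.012 (0.15).

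Other genes of smooth muscle and mural cells had positive tau log2 fold changes in Ch25h+/+, but none passed the edgeR test and the list was not tested as a set. Of 14 listed genes 11 were tested, all 11 had a positive tau log2 fold change in Ch25h+/+, and their median was 0.38, beside -0.0080 over all genes. The values ran from 0.0069 in Kcnj8 (standard error 0.24; edgeR adjusted p 0.998) to 0.65 in Myh11. Myl9, a myosin light chain of contractile cells, had 0.64 (standard error 0.16; edgeR adjusted p 0.0567), Myh11, the smooth muscle myosin heavy chain, 0.65 (0.24; 0.303), and Pdgfrb, a pericyte receptor, 0.38 (0.11; 0.123). In Ch25h-/- the median was 0.10. For mean Ch25h loss Lmod1, a smooth muscle leiomodin, fell by 0.42 (edgeR adjusted p 0.0480) and no other gene of the 11 passed, where 20.3% of all genes did. The summed level of 8 mural markers, which leave Acta2 out and are also on the list of 14, ran from 88.8 to 121.7 CPM without tau and from 122.02 to 159 with tau in Ch25h+/+. In Ch25h-/- it ran from 106 to 138 CPM without tau and from 116 to 146 with tau, with none of the 8 at 0 throughout a group. Among other marker sums in Ch25h+/+, microglia had 334 to 352 CPM without tau and 517 to 646 with it, with no overlap. Meninges and fibroblasts (41.2 to 78.7 and 70.8 to 139 CPM) and endothelium (165 to 192 and 188 to 227) lay higher with overlap. Striatum (175 to 275 and 159 to 178) lay lower with overlap. The remaining sums overlapped widely: neurons (6222 to 6663 and 5930 to 6631), cortex (730 to 821 and 710 to 799) and T cells (1.64 to 3.24 and 1.47 to 2.15). So did astrocytes (2966 to 3270 and 2765 to 4990), oligodendrocytes (2605 to 3587 and 2686 to 4924), hippocampus (188 to 249 and 179 to 275) and choroid plexus (15.9 to 1444 and 35.9 to 2335). In bulk tissue more cells of a type and more RNA per cell cannot be told apart, and the part of cell content in the Acta2 values was not tested.

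**Figure D4:**
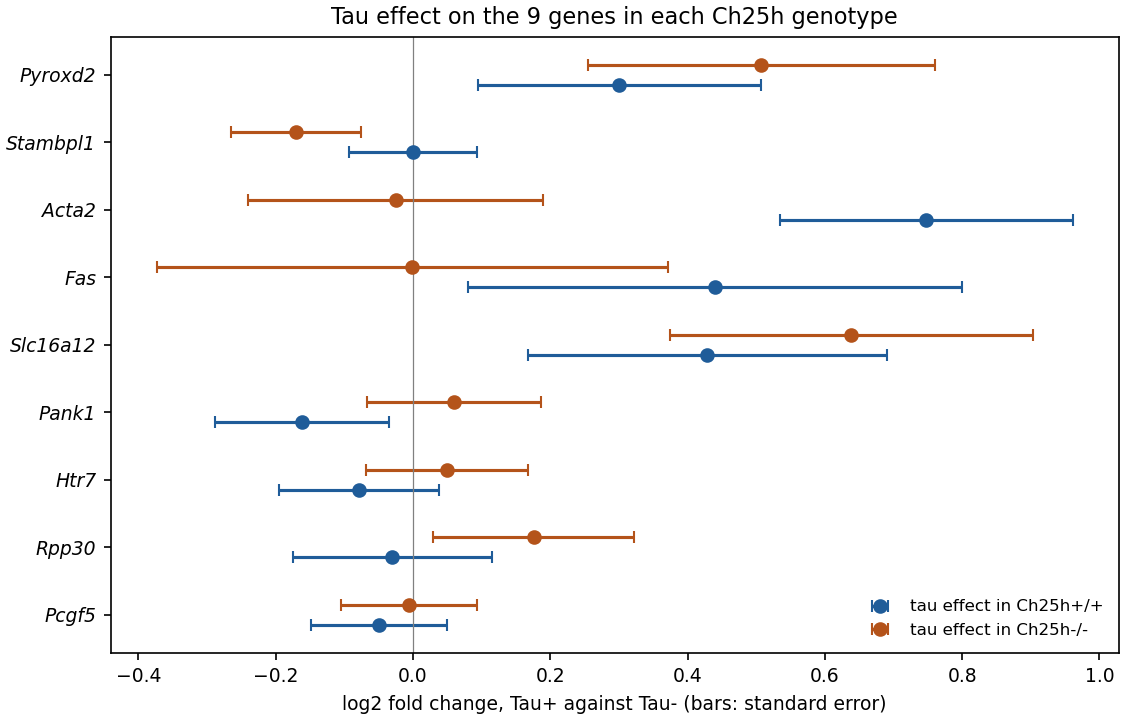
Log2 fold change of Tau+ against Tau- (points, bars are standard errors) for each of the 9 genes in Ch25h+/+ (blue) and Ch25h-/- (orange). Acta2 has 0.75 in Ch25h+/+ and -0.025 in Ch25h-/-, and none of the 18 effects passed the threshold in the edgeR test.

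Slc16a12, a transporter of creatine in the monocarboxylate transporter family, lies 193 kb from Ch25h. Its libraries had 2.91, 3.38, 3.66 and 3.93 CPM in Ch25h+/+ Tau-, 3.45, 3.81, 4.92 and 6.44 in Ch25h+/+ Tau+, 2.23, 3.51, 3.76 and 4.46 in Ch25h-/- Tau- and 3.68, 3.83, 6.42 and 7.93 in Ch25h-/- Tau+. The 2 highest libraries of each Tau+ group were those with over 1000 CPM of choroid plexus markers. In Ch25h+/+ Tau+ the marker sum was 2335 and 1145 CPM in those libraries against 40.3 and 35.9 in the others. In Ch25h-/- Tau+ it was 2332 and 2798 CPM against 56.5 and 60.3. In the Tau- groups the sum ran from 15.9 to 1651 CPM while Slc16a12 stayed at 2.23 to 4.46 CPM. The 7 choroid plexus markers were all detected in each group.

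The tau effect on Slc16a12 was 0.43 (standard error 0.26) in Ch25h+/+ and 0.64 (0.26) in Ch25h-/-, with a mean of 0.53 (0.19; unadjusted p 0.0100, adjusted p 0.267 in the edgeR test). With the choroid plexus score as a covariate the mean was 0.44 (edgeR adjusted p 0.251), and it did not pass. Without Ch25h-/- Tau+ replicate 4 the effect in Ch25h-/- was 0.40. The mean Ch25h difference was 0.11 (0.19). It ran from -0.0091 without that library to 0.21 without Ch25h+/+ Tau+ replicate 4, and with library class as a covariate it was -0.53, a change of sign. Of the 14 other genes of the family and its chaperones, 1 rose past the threshold with tau in Ch25h+/+, where 1.56% of all genes passed. It was Slc16a1, the main lactate transporter of glia and endothelium (0.54, standard error 0.087; edgeR adjusted p 0.00179). Slc16a1 fell by 0.46 on the log2 scale with Ch25h loss in Tau+ (edgeR adjusted p 0.0107; 3.55% of all genes passed). Both comparisons again share the Ch25h+/+ Tau+ libraries. In Ch25h+/+ endothelium markers summed to 165 to 192 CPM without tau and 188 to 227 with it. Microglia markers had 334 to 352 and 517 to 646 CPM, and astrocyte markers 2966 to 3270 and 2765 to 4990. The part of cell content in the Slc16a1 values was not tested. Slc16a7, the neuronal lactate transporter, rose with mean Ch25h loss (0.43, 0.093) and Bsg, the chaperone of Slc16a1, fell by 0.20 (edgeR adjusted p 0.00618 and 0.0474), and Slc16a1 fell by 0.18 in that mean (0.0489), so 3 of 14 were called beside 20.3% of all genes.

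Pank1, which phosphorylates pantothenate in the first step of coenzyme A synthesis, lies 332 kb from Ch25h. The 4 libraries had 18.2, 18.9, 20.3 and 20.4 CPM in Ch25h+/+ Tau-, and 18.3, 20.1, 20.9 and 21.4 in Ch25h-/- Tau-. In Ch25h+/+ Tau+ the values were 11.9, 18.3, 18.5 and 20.5 CPM, where 1 library stood below the rest, and in Ch25h-/- Tau+ 18.3, 20.7, 22.3 and 22.7. The groups overlapped in both tau states, with a mean log2 difference of 0.16 (standard error 0.090). It was 0.094 without Ch25h+/+ Tau+ replicate 1, the low library, 0.080 with GC-corrected offsets and 0.27 with library class as a covariate. The tau effect was -0.16 (0.13) in Ch25h+/+ and 0.060 (0.13) in Ch25h-/- (edgeR adjusted p 0.830 and 0.99998). Of the 7 other enzymes of the pathway, Pank3 rose (0.29) and Coasy fell by 0.17 with mean Ch25h loss, where 20.3% of all genes were called (edgeR adjusted p 0.00908 and 0.0322), and none changed past the threshold with tau.

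Stambpl1, a deubiquitinase that trims ubiquitin chains at endosomes, lies next to Acta2, with 0.757 kb between their 3′ ends. The Ch25h+/+ libraries had 17.6, 17.6, 19.5 and 19.6 CPM without tau, and 16.6, 16.8, 19.2 and 21.7 with tau. The Ch25h-/- libraries had 17.2, 19.1, 19.6 and 19.999 CPM without tau, and 16.2, 16.9, 17.0 and 17.3 with tau. The mean Ch25h difference was -0.054 (standard error 0.067), and -0.19 with the GC-corrected offsets. The tau effect was -0.00029 (0.093) in Ch25h+/+ and -0.17 (0.095) in Ch25h-/- (edgeR adjusted p 0.9995 and 0.99998). The groups overlapped in each of these comparisons. Of 9 tested genes of the endosomal sorting machinery, Vps37a rose with mean Ch25h loss (0.22, 0.048; edgeR adjusted p 0.00619) and no other gene passed, while 20.3% of all genes did.

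Htr7, a serotonin receptor that raises cyclic AMP, lies 1.48 Mb from Ch25h. Without tau it had 13.6, 14.3, 15.8 and 16.1 CPM in the Ch25h+/+ libraries and 11.9, 13.6, 15.6 and 16.6 in Ch25h-/-. With tau it had 12.1, 13.9, 14.3 and 16.4 CPM in Ch25h+/+ and 14.0, 14.1, 15.4 and 16.3 in Ch25h-/-, and all groups overlapped. The mean Ch25h difference was 0.013 (standard error 0.083), and the tau effect -0.078 (0.12) and 0.049 (0.12) in Ch25h+/+ and Ch25h-/- (edgeR adjusted p 0.957 and 0.99998). None of 10 other tested serotonin receptors passed the edgeR test in any of the 7 comparisons, in which 0.0338% (interaction) to 20.3% (mean Ch25h loss) of all genes did.

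Rpp30, a protein subunit of RNase P, which trims the 5′ ends of transfer RNAs, lies 1.61 Mb from Ch25h. Without tau its libraries had 6.25, 6.84, 7.16 and 8.03 CPM in Ch25h+/+, and 6.29, 6.45, 6.63 and 6.86 in Ch25h-/-. With tau they had 5.76, 6.72, 6.86 and 8.44 CPM in Ch25h+/+, and 5.99, 6.88, 7.93 and 8.97 in Ch25h-/-, with overlap throughout. Its mean Ch25h difference was -0.0062 (standard error 0.10), and -0.36 with library class as a covariate. The tau effect was -0.030 (0.14) and 0.18 (0.15) in Ch25h+/+ and Ch25h-/- (edgeR adjusted p 0.992 and 0.99998). Of 10 other tested subunits of RNase P and RNase MRP, Rpp25l and Pop7 fell by 0.48 and 0.32 with mean Ch25h loss, a share of calls like the 20.3% of all genes (edgeR adjusted p 0.00653 and 0.0240).

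Counted together, 0 of the 9 genes passed the edgeR quasi-likelihood test for tau in Ch25h+/+, where 1.56% of all genes did, and 0 for tau in Ch25h-/- (0.0395% of all genes). For the mean tau effect (0.857%) and the interaction (0.0338%) the count was also 0. At an unadjusted p under 0.05 the counts were 1 for tau in Ch25h+/+ (Acta2; 9.38% of all genes), 1 for tau in Ch25h-/- (Slc16a12; 3.68%), 3 for the mean tau effect (Pyroxd2, Acta2 and Slc16a12; 9.85%) and 1 for the interaction (Acta2; 4.13%). DESeq2 and limma-voom each called Acta2 for tau in Ch25h+/+ and no gene in the other 3 comparisons. Acta2 was also the only one of the 9 whose Tau- and Tau+ libraries did not overlap in Ch25h+/+ (5.86% of all genes), and none of the 9 was free of overlap in Ch25h-/- (2.14%).

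The stretch around Ch25h was then read as a whole, without Ch25h and Pyroxd2. Of the 142 other tested genes within 10 Mb, 35 passed the threshold for mean Ch25h loss, 18 higher and 17 lower. That is 24.6%, beside 20.3% of the 17592 genes outside. In Tau- 2 of the 142 passed (1.41% beside 1.01%), and in Tau+ 9 did (6.34% beside 3.51%). Both counts depend on single libraries: without Ch25h+/+ Tau+ replicate 1 they were 15 of 145 (7.21% outside) in Tau- and 0 (1.49% outside) in Tau+. In fits of only the 8 libraries compared they were 10 of 135 (7.27% outside) and 0 (0.618% outside). The median absolute log2 fold change was 0.16 both inside and outside for mean Ch25h loss. Within 5 Mb 18 of 58 genes passed (31.0% beside 20.3%), and within 20 Mb 68 of 257 (26.5% beside 20.2%). Without Ch25h-/- Tau+ replicate 3 or replicate 4 the count within 10 Mb was 23 of 144 or 22 of 145 (14.4% and 13.5% outside). With library class as a covariate 0% passed both inside and outside, in a fit that leaves few calls possible, and with GC-corrected offsets 9 did, or 6.34%, beside 4.06% outside. With the same offsets 2 of 142 passed in Tau- (0.0739% outside) and 4 in Tau+ (1.02% outside).

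By distance the share past the threshold did not fall away from Ch25h in one direction. In bins of 5 Mb it was 26.1% of 23 genes just before Ch25h and 34.3% of 35 genes just after it. It was 40.1% of 157 genes at 25 to 30 Mb before it, and 24 of 60 genes passed at 10 to 15 Mb after it. In the 4 bins from 5 to 25 Mb before Ch25h it was 16% to 18.8%, and in the 2 bins from 15 to 25 Mb after it 13.3% and 9.38%. Of the 543 tested genes of the chromosome other than Ch25h, 6 had an absolute log2 fold change over 1 for mean Ch25h loss. Besides Pyroxd2 these were Gm26902 (-1.11), the pseudogene Gm15801 (-2.25, at 0.373 CPM on average), the pseudogenes Gm6807 (1.958) and Gm6970 (2.11), and Malat1 (1.53), a nuclear noncoding RNA that was high in the rRNA-rich libraries. Pyroxd2 was the only protein-coding gene among the 6. The pseudogenes can share reads with their parent genes and are uncertain.

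**Figure D5:**
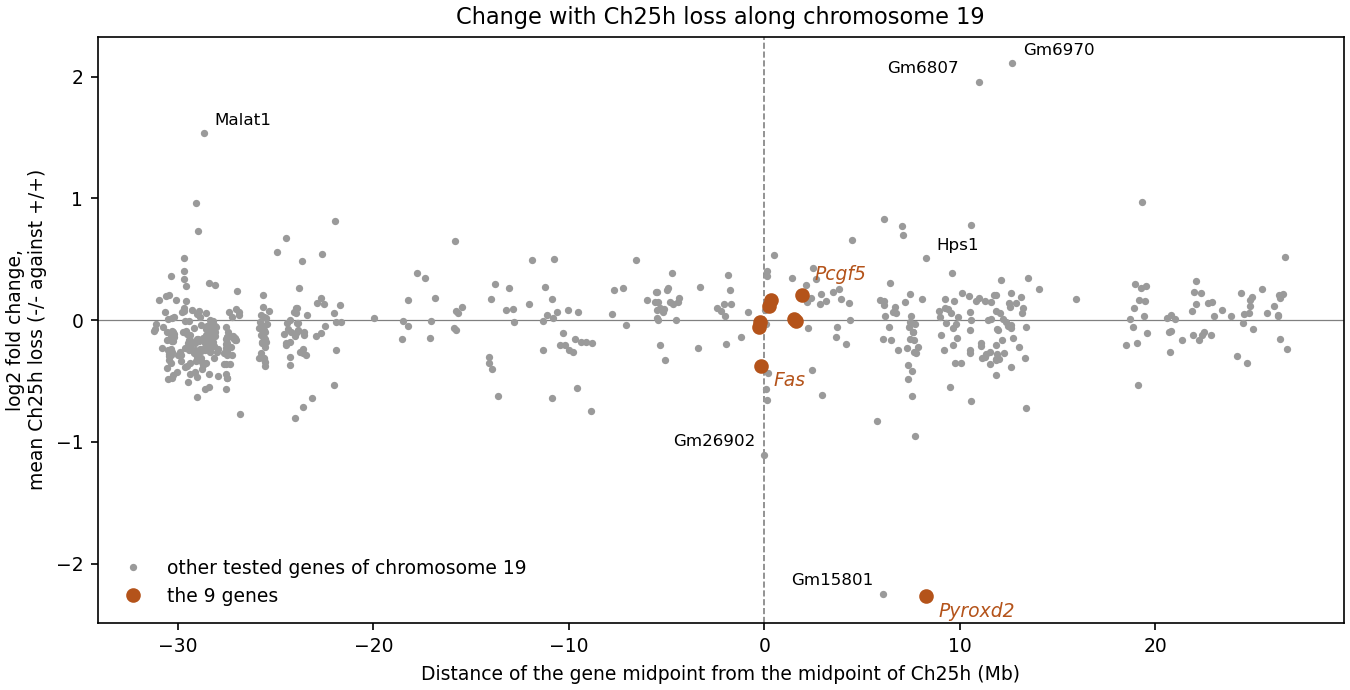
Log2 fold change of mean Ch25h loss for the 543 tested genes of chromosome 19 other than Ch25h, against the distance from Ch25h (dashed line) in Mb, with the 9 genes in orange. The 8 genes near Ch25h lie between -0.37 and 0.21, while Pyroxd2, 8.26 Mb away from midpoint to midpoint, lies at -2.27.

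Among the 142 genes, 8 of the 10 with the smallest p for mean Ch25h loss lay after Ch25h, and Gm10053 and Atad1 lay before it. More of the tested genes lie after it: by midpoint the bins of 5 Mb held 35 and 57 genes after Ch25h and 23 and 27 before it. The nearest of the 10 to Ch25h was Atad1, at 1.73 Mb, and Frat1, Frat2, Ubtd1 and Golga7b lay at 7.35 to 7.77 Mb, near Pyroxd2. Pdlim1, an adaptor of the actin cytoskeleton, fell most among the 10, from 10.4 ± 1.87 CPM (SD, n = 8) to 5.90 ± 1.38. Its log2 fold change was -0.83 (standard error 0.13; edgeR adjusted p 0.00128), and it lies 5.75 Mb from Ch25h. Gm10053, a predicted gene, fell by 0.55. Frat1 and Frat2, a pair of neighbouring genes whose proteins bind the kinase GSK3, fell by 0.48 and 0.37, and Ubtd1 by 0.42. Golga7b, which helps to palmitoylate proteins, fell by 0.27. Btaf1, a regulator of the TATA-binding protein, rose (0.43), as did Chuk, a kinase of the NF-kappaB pathway (0.39), Lgi1, a secreted synaptic protein (0.26), and Atad1, which clears misplaced proteins from mitochondria (0.25). In the edgeR quasi-likelihood test the adjusted p of these 9 lay between 0.00250 and 0.0110. All 10 lost the call with library class as a covariate. Pdlim1 was then -1.17 and Chuk 0.37, while Gm10053 was -0.36, Frat1 -0.20, Frat2 -0.22, Ubtd1 -0.26, Golga7b -0.12, Btaf1 0.31, Atad1 0.056 and Lgi1 0.033. Of the 10, 4 (Pdlim1, Gm10053, Frat1 and Btaf1) kept the call with GC-corrected offsets. Beside Ch25h, with mean Ch25h loss, the interferon-induced gene Ifit3b fell by 0.66 (edgeR adjusted p 0.0172), Ifit3 (-0.56, 0.0628), Ifit1 (-0.43, 0.249), Ifit2 (-0.029, 0.838) and the lysosomal lipase gene Lipa (0.082, 0.574) did not pass, and the related Ifit1bl2 and Ifit1bl1 had 0.40 and 0.36. The Ch25h difference in Tau+ was -1.25 for Ifit3 and -0.96 for Ifit3b (edgeR adjusted p 0.0282 and 0.0391, where 3.55% of all genes passed), and in Tau- it was 0.12 and -0.36 (0.847 and 0.450), while microglia markers in those Tau+ libraries summed to 517 to 646 CPM with intact Ch25h and 322 to 404 CPM without it, whose part was not tested.

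The genes whose pattern over the 16 libraries was most like that of Pyroxd2 were Cyb5r3, Tmem189, Zfp787, Dmwd and Dtx1. Their Pearson correlations with Pyroxd2, on log2(CPM + 0.5), were 0.931, 0.920, 0.918, 0.897 and 0.895. None lies on chromosome 19, and the 16 points share genotype and ribosomal RNA class, whose parts in this likeness were not tested. After each group's mean was taken out, the correlations were 0.764 for Cyb5r3 and 0.038 to 0.431 for the other 4. Their log2 fold changes with mean Ch25h loss were -0.48 to -0.25, against -2.27 for Pyroxd2. Of the 8 genes near Ch25h, Pcgf5 ran most against Pyroxd2 (-0.748 over all libraries, -0.534 within groups). With log2 ribosomal RNA the Pearson correlation was 0.682 for Pcgf5 and -0.835 for Pyroxd2, and its part in this was not tested. Of 9 other tested oxidoreductases of this kind, Pyroxd1 rose by 0.33 and Aifm2 fell by 0.26 with mean Ch25h loss, again beside 20.3% of all genes (edgeR adjusted p 0.0383 and 0.0276), and none changed past the threshold with tau.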

How the data were processed

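The deposited table gave whole-number counts per gene and library, with no normalization by the authors. STAR 2.7 and the builds GRCm38 and mm10 are named per the submitters' processing notes. The counting program, annotation and strand use are not given in the sources used here, so overlapping, antisense and near-identical genes are uncertain. Positions, types, exon lengths and GC content came by symbol from GENCODE M21 (GRCm38), and promoters from RefSeq (GRCm38.p6), which held all 9 genes.

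All 16 libraries entered 1 model of group means in edgeR 4.0.16 (R 4.3.3; TMM, filterByExpr, quasi-likelihood test). The Benjamini-Hochberg adjustment ran over the 17736 genes tested, with a threshold of 0.05. The fit was tested on simulated data. CPM use TMM-scaled library sizes, and the 3-count floors cover counting error only. No 2 libraries held identical values. Intervals of a log2 fold change cover 95% by a normal approximation with the model's standard error, which includes the spread between libraries.

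Alternatives were RLE size factors, all genes with at least 1 count, DESeq2 1.42.0, limma-voom with quality weights (limma 3.58.1), covariates for ribosomal RNA class (CT010467.1 at or above 1000 CPM) and for choroid plexus markers, GC-corrected offsets (loess, span 0.5), only the 8 libraries compared, windows of 5 and 20 Mb, and each library left out. Members and lists were chosen with earlier results of these data known. Named beside them by rule were the 10 genes within 10 Mb of Ch25h with the smallest p, the 5 tested genes on each side of Pyroxd2, the 5 most like it whose log2(CPM + 0.5) averaged 1 or more, Lipa and 4 Ifit genes, and list members past the threshold, up to 3 per list. Genes named outside this rule were chosen after their values were seen: Gm26902, Kif20b, Ifit1bl1, Ifit1bl2, the chromosome 19 genes over 1 in size, Phc3 and Phc2, and the mural genes Myl9, Myh11, Pdgfrb and Kcnj8. Replicates are numbered in record order and pair nothing.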

Additional observations from a re-analysis of the deposited data

Results flagged for a closer look

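Each of the 9 genes was checked in each of the 4 groups for a library far from the other 3, which makes 36 checks, of which chance would flag about 1 in 20. One exceeded the limit. In Ch25h-/- Tau+ replicate 2, Pyroxd2 had 1.43 CPM from 22 counts, and the nearest of the other 3 libraries had 2.31 CPM. The gap took 0.885 of the group's range, above Dixon's critical value for 4 samples. Counting alone gives a standard error of 21.3% for 22 counts. Without that library the mean log2 fold change of Ch25h loss for Pyroxd2 was -2.21. No gene of the 9 had a tau effect that differed between the Ch25h genotypes past the threshold in the edgeR interaction test.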

How the results depend on the processing

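The Pyroxd2 difference for mean Ch25h loss (-2.27) was -2.28 to -2.06 under the 7 alternatives and -2.36 to -2.18 when single libraries were left out in turn. The count of the 9 genes past the threshold for tau in Ch25h+/+ (0) was 1, namely Acta2, with no filter, DESeq2, limma-voom and the choroid plexus covariate, and 0 in all 16 fits without a library. For tau in Ch25h-/-, the mean tau effect and the interaction it was 0 under every alternative run. The count within 10 Mb of Ch25h for mean Ch25h loss (35) was 0 with library class as a covariate, 9 with GC-corrected offsets, 18 within 5 Mb, 68 within 20 Mb and 22 to 40 without single libraries. In Tau- (2) it was 4 of 222 with no filter, 7 with DESeq2, 10 with limma-voom, 0 with library class, 10 in the 8 libraries compared, 0 within 5 Mb, 7 within 20 Mb and 0 to 15 without single libraries (15 without Ch25h+/+ Tau+ replicate 1). In Tau+ (9) it was 16 with DESeq2, 15 with limma-voom, 0 with library class, 4 with GC-corrected offsets, 0 in the 8 libraries compared, 4 within 5 Mb, 16 within 20 Mb, 0 in the 9 rRNA-poor libraries, where 1 Ch25h-/- library stands against 4 and is assumed to vary like the others, and 0 to 13 without single libraries. It was 0 in Tau+ without Ch25h+/+ Tau+ replicate 1 or 4 or Ch25h-/- Tau+ replicate 3 or 4. Outside the 10 Mb the share called moved too, to 7.17% (Tau-) and 9.76% (Tau+) with DESeq2 and 7.82% and 10.6% with limma-voom. In Tau- the share inside was then below the share outside with both tools. With GC-corrected offsets it was above, with 2 of 142 inside beside 0.0739% outside in Tau-. In Tau+ the 4 of 142 with those offsets stood beside 1.02% outside. Wider and narrower windows hold more and fewer genes; library class nearly coincides with Ch25h genotype, which leaves few calls possible; the cause of the other shifts was not tested. No paired analysis was possible because the labels carry no replicate numbers. Depth limits Fas most, with 8 to 42 counts per library.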
